A study of Mus musculus with 8 samples.

Results

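Potassium channel genes outside the GIRK family were read in ribosome-bound RNA from mu-opioid receptor (MOR)-expressing cells of the paraventricular thalamus (PVT). Members were all genes of the table whose symbol begins with Kcn, apart from the GIRK subunits Kcnj3, Kcnj5, Kcnj6 and Kcnj9 and apart from Kcnj13. This left 89 of 18939 genes, out of 94 symbols with that beginning, by a rule that reads symbols alone and that was set with earlier results of these data known. Translating ribosome affinity purification (TRAP) pulls down ribosomes that carry the EGFP-L10a fusion protein, with the mRNA bound to them. All mice were OPRM1cre X EGFP-L10a on a C57Bl/6J background and 8 to 12 weeks old at the start, so that Cre made from the Oprm1 locus switched the tagged ribosomal protein on in every dissected cell that had used that locus. The morphine group drank morphine, begun at 0.3 and raised to 0.5 mg/ml, in 0.2% saccharin for 11 days, and the control group drank 0.2% saccharin. Each group had 4 libraries, 2 male and 2 female by their labels, and each library is described as a pool of gross dissections of 2 mice of the same sex, which is uncertain for control replicate 5. The question was which of these genes differed in ribosome-bound RNA between the 2 groups.

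Potassium channels let potassium out of the cell and so set the resting potential, shape the action potential and limit repetitive firing. Voltage-gated (Kv) channels are tetramers that open on depolarization, two-pore (K2P) channels carry leak current, inward rectifiers (Kir) pass current best near rest, and calcium-activated (SK, BK) channels follow calcium entry. Auxiliary subunits such as the Kv beta proteins, KChIPs and Kcne proteins alter the gating and surface delivery of the pore subunits. In thalamic neurons, leak channels and M-type (Kv7) channels are known for setting the switch between tonic and burst firing. The GIRK channels, which MOR opens through G proteins, are not among the members.

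The control libraries held 37081346 to 43311792 counts each and the morphine libraries 31151106 to 47582947. Members held 0.420% to 0.528% of them. Of the 89 members, 70 had at least 10 counts in every library and 18 were under 1 CPM (counts scaled to a library of 1000000) in every library. Midline thalamic markers were present in all libraries (10 of 10 found, summed expression 2756 to 3599 CPM in controls and 1976 to 3459 CPM with morphine). Of these, 1 (Drd2) was higher in the mean with morphine and the others were lower, with a mean log2 difference of -0.26 over the list. At an unadjusted P under 0.05, 3 were lower with morphine (Gbx2, Necab1 and Oprm1), and 0 of the 10 were called. Oprm1, the locus that drives the tag, lay at 16.8 to 32.3 CPM in controls and 14.02 to 18.4 CPM with morphine (log2 fold change -0.62, edgeR adjusted P = 0.207), and its part in the results was not tested. Markers of telencephalic pyramidal neurons were present as well. Of 13 listed, 12 were found, and their sum was 843 to 1369 CPM in controls and 1002 to 1865 CPM with morphine, with 11 higher in the mean with morphine. Of these 12, 6 were higher and 1 lower at an unadjusted P under 0.05. Choroid plexus markers (13 of 13 found, none at 0 in all controls) summed to 43.7 to 165 CPM in controls and 219 to 681 CPM with morphine, with 12 higher in the mean and 10 at an unadjusted P under 0.05. The telencephalic sum was highest in morphine replicates 4 and 7 and the choroid plexus sum in morphine replicates 8 and 4, and both were lowest in control libraries. The choroid plexus sums of the groups did not overlap, whereas the telencephalic sum of control replicate 6 (1369 CPM) was above those of morphine replicates 3 (1002 CPM) and 8 (1360 CPM). Control replicate 5 is labelled female but had counts of 4 genes of the Y chromosome (Ddx3y, Eif2s3y, Kdm5d, Uty) at 28.7% to 35.8% of the mean of the male libraries.

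The channel complement of the control libraries was dominated by a few genes. Levels are given as CPM per kb of transcript, mean ± SD of 4 libraries, so that genes of different length can be compared. Kcnab2, a Kv beta subunit that joins Kv1 channels in axons, had the highest level at 171 ± 18.4 CPM per kb. It was followed by Kcnc2 (Kv3.2, a fast-closing channel of neurons that fire at high rates) at 119 ± 4.04 CPM per kb. Kcnip4 (KChIP4, a calcium-binding partner of Kv4) was at 83.1 ± 10.2, Kcnab1 (Kv beta 1) at 73.5 ± 3.80, Kcnip1 (KChIP1) at 55.8 ± 3.46 and Kcna1 (Kv1.1, an axonal channel that holds the spike threshold) at 55.7 ± 14.7 CPM per kb. The ranges of Kcnab2, Kcnc2 and Kcnip4 over the control libraries did not overlap in that order, and neither did those of Kcnab1 and Kcnip1, whereas Kcnip1 and Kcna1 did not differ beyond their spread. Only 4 of the 88 neighbouring pairs in the whole order had control ranges that did not overlap, so most neighbours cannot be ranked. Kcnab2 overlaps the coding gene Nphp4 and Kcnip1 overlaps Kcnmb1, and 10 members in all overlap a coding gene.

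Among the next levels were those of Kcna2 (Kv1.2, a partner of Kv1.1) at 36.6 ± 5.57, Kcnma1 (the pore of the BK channel) at 34.4 ± 2.80 and Kcnab3 (Kv beta 3) at 30.2 ± 9.39 CPM per kb. In each library the 10 highest members held 55.7% to 65.1% of the summed level of all 89. The 3 highest genes had the same order in the means of the morphine libraries. There Kcnip4 (81.7 ± 12.7), Kcna1 (80.2 ± 10.7) and Kcnab1 (79.9 ± 24.9 CPM per kb) did not differ beyond their spread and cannot be ranked.

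Most gene families are described here by their leading member. In the Kir family it was Kcnj12 (Kir2.2) at 28.5 ± 2.96 CPM per kb, among K2P channels Kcnk2 (TREK1, a leak channel opened by stretch and lipids) at 22.7 ± 4.52, and in the Kv4 family Kcnd2 (Kv4.2, an A-type channel of dendrites) at 23.0 ± 1.93. Kcnmb4 led the BK beta subunits at 17.7 ± 2.62, Kcnn3 (SK3) the SK family at 14.6 ± 0.767, Kcng4 the silent subunits at 11.2 ± 0.875 and Kcnh2 (Kv11.1, the ERG channel) the Kcnh family at 9.68 ± 1.93 CPM per kb. The Kv beta subunits held 24.1% of the summed control level, Kv3 16.4%, KChIPs 15.4% and Kv1 11.9%, against 4.75% for K2P and 4.30% for Kir. Kcne proteins held 0.0636%.

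Channels that are usual in other cell types ran from the middle of the order of levels to near 0. Kcnj10 (Kir4.1 of astrocytes) was at 2.56 ± 1.43 CPM per kb in controls and Kcnj16, its partner Kir5.1, at 0.266 ± 0.233. Kcnk13 (THIK1, a channel of microglia) was at 1.12 ± 0.177 CPM per kb, Kcnj8 (Kir6.1 of pericytes) had 0 to 19 counts in any library, and Kcnn4 (KCa3.1) had 0 counts in 7 libraries and 2 counts in morphine replicate 8. A count of 0 allows up to 3 counts, which is 0.0617 to 0.0974 CPM at the depth of these libraries, counting error only. The summed markers of astrocytes (7 of 8 higher in the mean with morphine, 1 of them, Sox9, at an unadjusted P under 0.05) lay at 249 to 441 CPM in controls and 323 to 388 CPM with morphine, mostly from Slc1a2, those of microglia (Itgam lower at an unadjusted P under 0.05) at 6.97 to 15.8 and 7.44 to 15.1 CPM, and those of endothelial cells and pericytes at 5.36 to 15.5 and 5.94 to 8.48 CPM, so the groups overlapped in all 3 lists. GABAergic markers summed to 1216 to 1618 CPM in controls and 949 to 1456 CPM with morphine, and 5 of 8 were higher in the mean with morphine. Gad2 and Dlx1 were lower at an unadjusted P under 0.05, and 0 of 8 were higher at that P. Ependymal markers (Dynlrb2 higher at an unadjusted P under 0.05) summed to 4.67 to 6.41 CPM in controls and 4.75 to 10.7 CPM with morphine. Oligodendrocyte markers (8 of 8 found) summed to 121 to 1220 CPM in controls and 566 to 1523 CPM with morphine and also overlapped, with control replicate 1 lowest and morphine replicate 8 highest. All 8 were higher in the mean with morphine, 0 at an unadjusted P under 0.05 in edgeR, and their part in the results was not tested. Kcna3 (Kv1.3), which neurons also use, stood higher at 8.08 ± 0.874 CPM per kb.

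**Figure D1:**
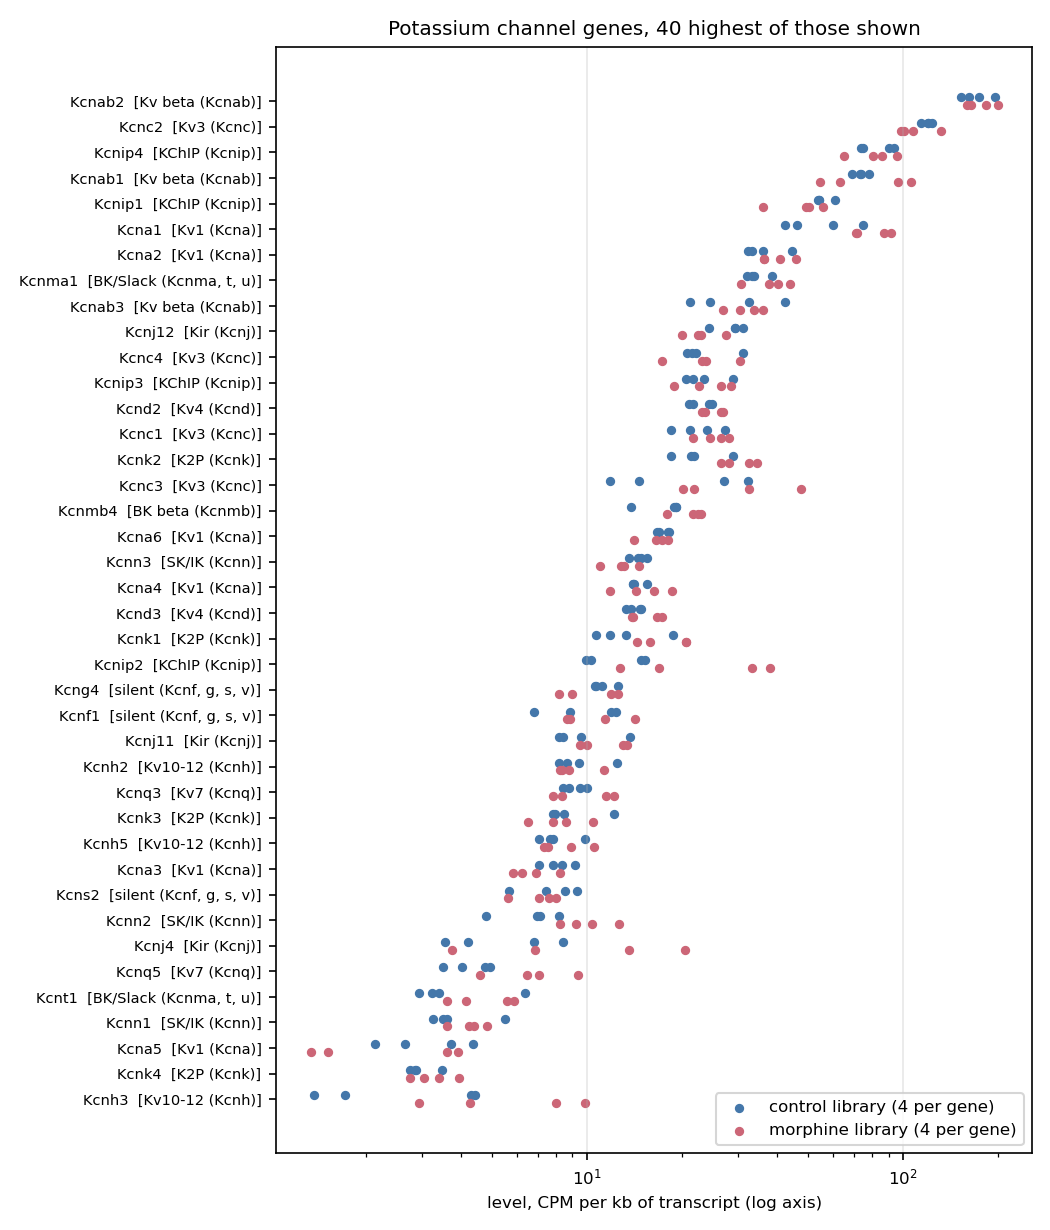
Levels of 40 members, those of highest control mean among the 86 shown, in CPM per kb of transcript on a log axis, with 1 point per library (blue, 4 control libraries, and red, 4 morphine libraries) and the family in brackets. Kcnab2 and Kcnc2 lie at the top, and the points of most neighbouring genes overlap.

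After 11 days of morphine, 1 of the 89 members passed the test (1.12% of members). It was Kcng2 (Kv6.2), a silent subunit that forms no channel alone and alters Kv2 channels when it joins them. The same test (the quasi-likelihood test of edgeR, P values adjusted by Benjamini-Hochberg over all genes) called 0.195% of all genes. A further 14 members were higher at an unadjusted P under 0.05 only, which makes 15 higher in all (16.9% of members, against 6.79% of all genes), and 2 were lower (2.25%, against 5.31% of all genes). The median log2 fold change was 0.12 over the 89 members and 0.0088 over all genes, and 61 members had a value above 0. In 3 members all morphine libraries stood above all controls (3.37% of members, against 3.34% of all genes), and in 0 members all stood below (against 3.21%), so the share of members without overlap was near the background.

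**Figure D2:**
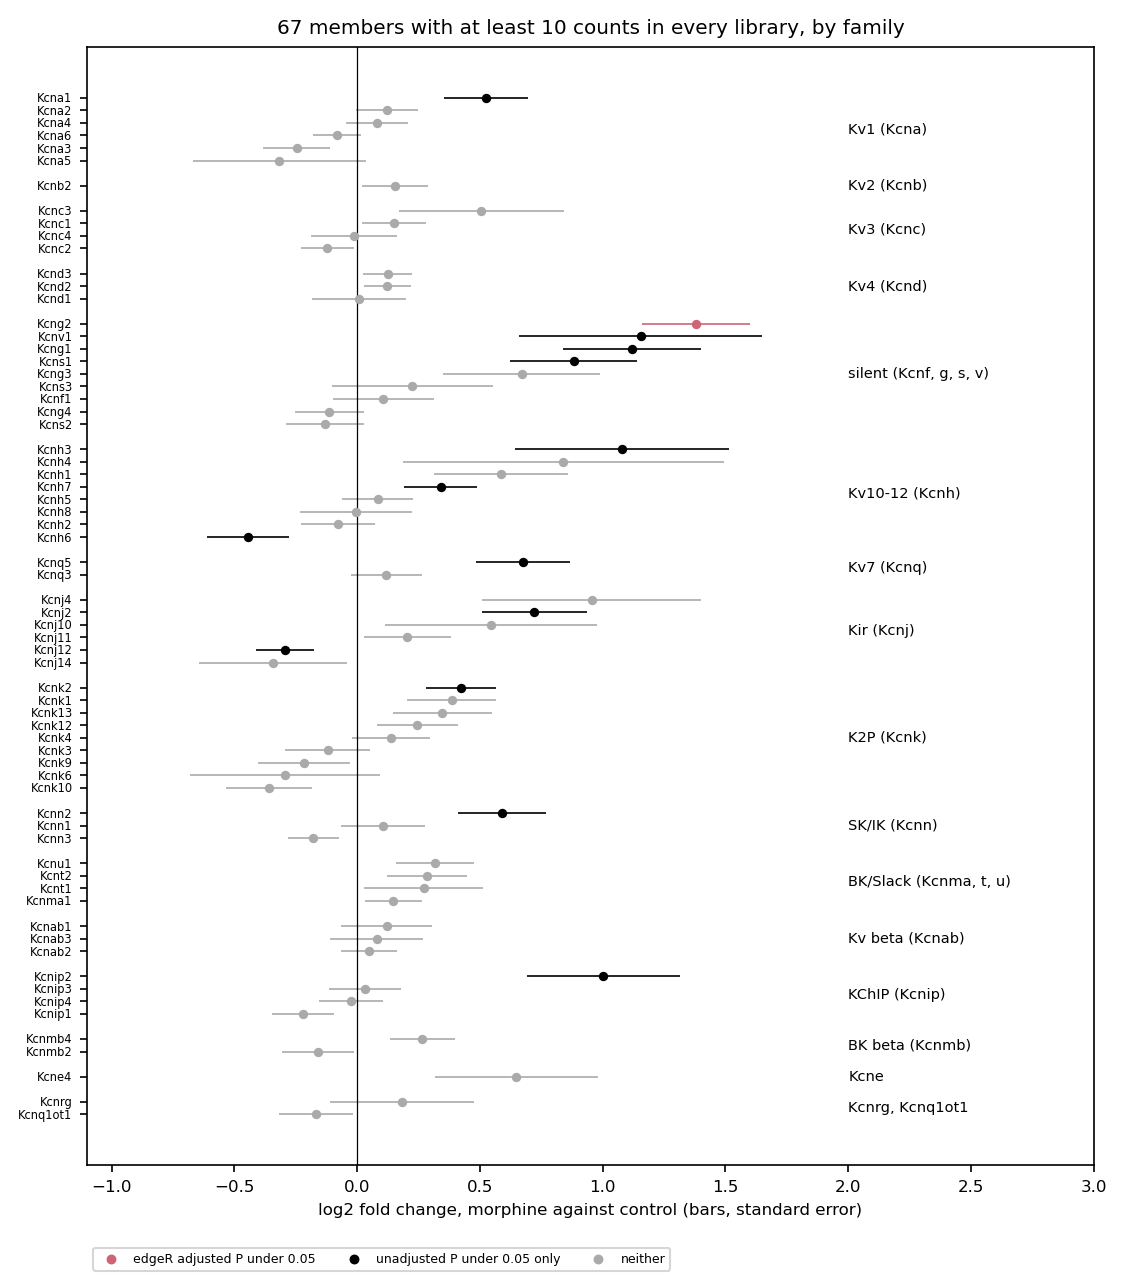
Log2 fold change of morphine against control with its standard error (edgeR) for 67 of the 70 members with at least 10 counts in every library, grouped by family, red where the adjusted P was under 0.05, black where the unadjusted P alone was, and grey otherwise. Kcng2 is the red point at 1.38, and the black points to the right of 0 include 3 other silent subunits.

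The silent subunits include the called gene. They do not conduct by themselves but assemble with Kv2 subunits and shift the voltage range and speed of the delayed rectifier. Kcng2 (chr18:80294544-80364254, GRCm38.p6) measured 1.74, 2.77, 2.03 and 2.58 CPM in control replicates 1, 2, 5 and 6 and 4.78, 6.15, 4.84 and 7.95 CPM in morphine replicates 3, 4, 7 and 8. All 4 morphine libraries lay above all 4 controls. Its log2 fold change was 1.38 ± 0.22 (SE, n = 4 per group, edgeR adjusted P = 0.0450), and the exact two-sided permutation test gave P = 0.0286, the smallest that 4 against 4 libraries allow. The difference was 1.26 in male and 1.48 in female libraries, the latter with control replicate 5, whose label is in doubt. With the telencephalic score as a term of the model it was 1.12 (edgeR adjusted P = 0.5264), with the choroid plexus score 0.71 (edgeR adjusted P = 1.00), and limma-voom gave an adjusted P of 0.0566, so the call was lost in all 3. The adjusted P was close to the threshold, and with a library left out it passed in 3 of 8 fits. It was 0.113 without control replicate 1, 0.0654 without control replicate 5, 0.136 without morphine replicate 4, 0.0658 without morphine replicate 7 and 0.104 without morphine replicate 8 (edgeR), while the log2 fold change stayed between 1.202 and 1.49. Over all genes, edgeR called 31 higher with all 8 libraries and condition only, and 0 higher once either marker score was added. It called 1 higher without control replicate 1, 12 without control replicate 5, 8 without morphine replicate 7, and 0 without morphine replicate 4 or 8. In the fits that kept Kcng2 it called 23 higher without control replicate 2, 72 without control replicate 6 and 70 without morphine replicate 3.

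Kcng1 (Kv6.1, chr2:168260117-168281533) measured 3.79, 7.90, 4.78 and 5.24 CPM in the controls and 7.34, 18.2, 11.1 and 10.6 CPM with morphine. Only control replicate 2 reached into the morphine range. The difference was 1.12 ± 0.28 on the log2 scale (SE, n = 4 per group, edgeR adjusted P = 0.143), and with the telencephalic and choroid plexus scores it was 0.70 and 0.59. Kcns1 (Kv9.1, chr2:164163619-164171113) measured 1.87, 3.85, 2.70 and 2.85 CPM in the controls and 3.68, 7.45, 4.68 and 5.02 CPM with morphine. Again control replicate 2 alone overlapped the morphine libraries. The difference was 0.88 ± 0.26 on the log2 scale (SE, n = 4 per group, edgeR adjusted P = 0.198), and 0.53 and 0.30 with these scores. Kcnv1 (Kv8.1) ran from 2.59 to 11.1 CPM in controls and from 7.06 to 27.6 CPM with morphine, so that the groups overlapped widely (log2 fold change 1.15 ± 0.49, edgeR adjusted P = 0.379).

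Of the 10 silent subunits, 4 were higher at an unadjusted P under 0.05 (6.79% of all genes), 0 were lower, and 7 had a value above 0, with a median log2 fold change of 0.45. With either marker score in the model, Kcng2 was the 1 of these 4 that kept such a P, and Kcnv1 was at -0.24 and -0.15. Kcng4, which had the highest level of them, was at -0.11 ± 0.14.

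**Figure D3:**
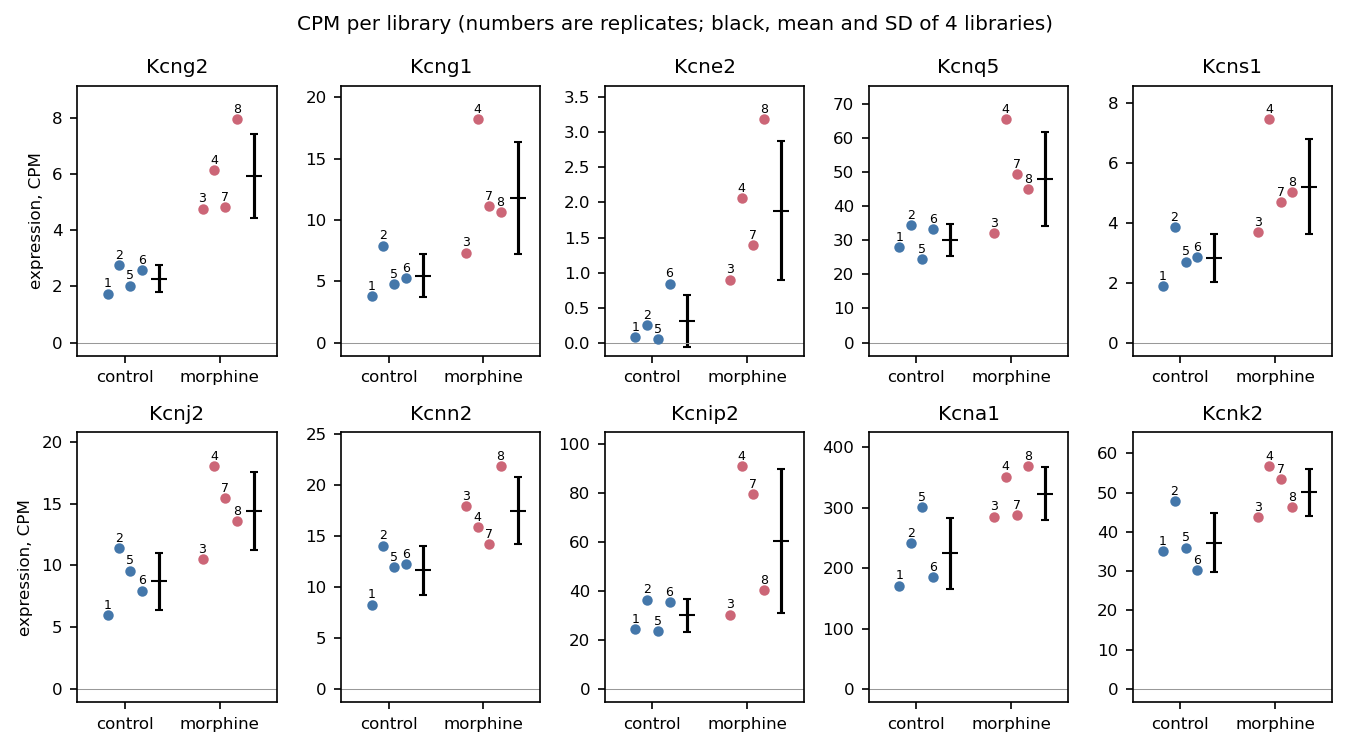
Expression in CPM of the 10 members with the lowest unadjusted P among those higher with morphine, 1 point per library with its replicate number (blue, control, and red, morphine) and the mean and SD of 4 libraries in black. Kcng2, Kcne2 and Kcnn2 show no overlap of the groups, and morphine replicate 4 or 8 is the highest point in all 10 panels.

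Among the Kcne proteins, single-span subunits that modify Kv and Kv7 channels, Kcne2 (chr16:92292389-92298133) had the highest log2 fold change of all 89 members. It is known as an abundant subunit of choroid plexus epithelium. Its counts were 3, 11, 2 and 31 in the controls and 32, 68, 43 and 155 with morphine, or 0.0769, 0.248, 0.0478 and 0.842 CPM against 0.899, 2.06, 1.40 and 3.19 CPM. Control replicate 6 came within reach of morphine replicate 3, but the groups did not overlap. The log2 fold change of Kcne2 was 2.66 ± 0.68 (SE, n = 4 per group, edgeR adjusted P = 0.147), with 3.12 in male and 2.40 in female libraries. With a library left out it ran from 2.27 to 3.85. Kcne2 was called in 1 of those 8 fits, the fit without control replicate 6 (edgeR adjusted P = 0.0308), where 72 of all genes were called higher. Morphine replicates 8 and 4 were the highest libraries both for Kcne2 and for the summed choroid plexus markers, and control replicate 6 was the highest control for both. The log2 fold change of Kcne2 was 0.42 once the score of those markers was a term of the model. That score was at most 2.09 in controls and at least 2.22 with morphine, so score and group can hardly be told apart. The part of these markers in the Kcne2 difference was not tested beyond that model. Kcne3 had 0, 2, 0 and 1 counts in controls and 7, 3, 4 and 2 with morphine, too few for a fold change, and Kcne4 and the other members of the family did not reach an unadjusted P of 0.05. The remaining named member, Kcne1l, had at most 0.405 CPM.

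Kcnq5 (Kv7.5, chr1:21398399-21962650) belongs to the Kv7 channels that acetylcholine and other transmitters suppress. It measured 28.0, 34.5, 24.5 and 33.2 CPM in the controls and 32.0, 65.5, 49.3 and 45.1 CPM with morphine. Morphine replicate 3 lay within the control range and the other 3 above it. The log2 fold change of Kcnq5 was 0.67 ± 0.19 (SE, n = 4 per group, edgeR adjusted P = 0.185), and 0.21 with the telencephalic and 0.38 with the choroid plexus score. Kcnq3, a usual partner, had a log2 fold change of 0.12 ± 0.14. The level of Kcnq5 per kb was 0.476 of that of Kcnq3 in controls (0.351 to 0.566) and 0.687 with morphine (0.586 to 0.777), ranges that did not overlap. Kcnq5 is among the members named for a low P, so the ratio restates its difference and is no separate test.

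Of the 8 Kv1 genes, 1 was higher at an unadjusted P under 0.05. Kcna1 (chr6:126636463-126645801) measured 171, 241, 301 and 186 CPM in the controls and 285, 352, 288 and 369 CPM with morphine. Control replicate 5 lay inside the morphine range and the other 3 controls below it. The log2 fold change of Kcna1 was 0.53 ± 0.17 (SE, n = 4 per group, edgeR adjusted P = 0.249). Kcna2 was at 0.12 ± 0.13, so the level of Kcna1 per kb was 1.51 ± 0.193 times that of Kcna2 in controls (1.27 to 1.67) and 2.01 ± 0.0845 times with morphine (1.94 to 2.13), without overlap. This ratio too restates the difference of a gene named for a low P. Kcna3 had a log2 fold change of -0.25 ± 0.14 (edgeR adjusted P = 0.517). The 3 Kv beta genes, which bind Kv1, had values between 0.047 and 0.12, and 0 of them had an unadjusted P under 0.05. Outside the Kcn symbols, Lgi1, a secreted protein found in Kv1 complexes, measured 31.0, 43.2, 36.0 and 43.0 CPM in the controls and 45.0, 61.8, 49.8 and 61.7 CPM with morphine. The groups did not overlap, and the log2 fold change was 0.51 ± 0.14 (edgeR adjusted P = 0.171).

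The Kv4 channels carry the A-type current that delays firing, and KChIPs and Dpp proteins bring them to the membrane. The 3 Kv4 genes lay between 0.0078 and 0.12, with Kcnd2 at 0.12 ± 0.096 and Kcnd3 (Kv4.3) at 0.12 ± 0.10, and 0 of 3 had an unadjusted P under 0.05. Kcnip2 (KChIP2, chr19:45792346-45816422) measured 24.6, 36.5, 23.8 and 35.6 CPM in the controls and 30.4, 91.2, 79.8 and 40.4 CPM with morphine. Morphine replicates 4 and 7 were far above every other library, and replicate 3 was within the control range. Kcnip2 had a log2 fold change of 1.00 ± 0.31 (SE, n = 4 per group, edgeR adjusted P = 0.222), and of 0.19 with the telencephalic score. The telencephalic markers also summed highest in morphine replicates 4 and 7, to 1865 and 1476 CPM, and their part in the Kcnip2 difference was not tested beyond that model. Kcnip1 was lower in the mean (log2 fold change -0.22 ± 0.13, edgeR adjusted P = 0.530) and Kcnip4 was at -0.02 ± 0.13. Dpp6, which speeds Kv4 gating, had a log2 fold change of 0.43 ± 0.17 (edgeR adjusted P = 0.323). It and Lgi1 were the 2 of 24 listed partner genes with an unadjusted P under 0.05, 0 partners were called, and the median of the 24 was 0.12. Over all genes, 6.79% were higher at that P, and 3.34% had all morphine libraries above all controls, as Lgi1 did.

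Of the 10 Kir genes, 1 was higher and 1 lower at an unadjusted P under 0.05, and both belong to the strongly rectifying Kir2 channels that hold the resting potential. Kcnj2 (Kir2.1, chr11:111066164-111076825) measured 5.95, 11.4, 9.59 and 7.95 CPM in the controls and 10.5, 18.04, 15.5 and 13.6 CPM with morphine. Only control replicate 2 and morphine replicate 3 overlapped. The log2 fold change of Kcnj2 was 0.72 ± 0.21 (SE, n = 4 per group, edgeR adjusted P = 0.201), and 0.55 with the telencephalic and 0.40 with the choroid plexus score. Kcnj12 (Kir2.2, chr11:61022564-61073269) measured 72.4, 76.5, 59.7 and 72.1 CPM in the controls and 67.9, 49.0, 56.5 and 55.3 CPM with morphine, with control replicate 5 and morphine replicate 3 in each other's range (log2 fold change -0.30 ± 0.12, edgeR adjusted P = 0.342). Kcnj4 (Kir2.3) reached 44.0 CPM in morphine replicate 4 but had 8.07 CPM in replicate 3 (log2 fold change 0.95 ± 0.45, edgeR adjusted P = 0.429). Its value was -0.24 with the telencephalic and 0.31 with the choroid plexus score, and ran from 0.49 to 1.24 with a library left out. Kcnj11, the pore of the ATP-sensitive channel, was at 0.20 ± 0.18, Kcnj14 at -0.34 ± 0.30, Kcnj10 at 0.54 ± 0.43 and Kcnj16 at 0.036 ± 0.59, all with an edgeR adjusted P of 0.653 or more.

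Of the 13 K2P genes, 1 was higher at an unadjusted P under 0.05. Kcnk2 (chr1:189207930-189402782) measured 35.1, 47.8, 36.0 and 30.3 CPM in the controls and 43.7, 56.8, 53.4 and 46.2 CPM with morphine. Control replicate 2 alone lay in the morphine range. Kcnk2 had a log2 fold change of 0.42 ± 0.14 (SE, n = 4 per group, edgeR adjusted P = 0.265). The acid-sensitive leak channels of relay neurons, Kcnk3 (TASK1) and Kcnk9 (TASK3), were at -0.12 ± 0.17 and -0.22 ± 0.19. Kcnk10 (TREK2), a close relative of Kcnk2, measured 5.74, 5.76, 4.71 and 6.43 CPM against 3.74, 5.02, 3.64 and 5.22 CPM (log2 fold change -0.36 ± 0.18, edgeR adjusted P = 0.453). Kcnk13 was at 0.35 ± 0.20.

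Among the calcium-activated channels, which give the afterhyperpolarization, Kcnn2 (SK2, chr18:45268750-45685887) measured 8.28, 14.1, 11.95 and 12.2 CPM in the controls and 17.96, 15.9, 14.2 and 21.9 CPM with morphine. The groups did not overlap, but control replicate 2 and morphine replicate 7 were nearly level. For Kcnn2 the log2 fold change was 0.59 ± 0.18 (SE, n = 4 per group, edgeR adjusted P = 0.217), and it was 0.095 with the choroid plexus score in the model. Kcnn3 (SK3) was at -0.18 ± 0.10 and Kcnn1 (SK1) at 0.10 ± 0.17, so the level of Kcnn2 per kb was 0.465 of that of Kcnn3 in controls (0.331 to 0.600) and 0.806 with morphine (0.563 to 1.15). Those ranges overlapped. The BK pore Kcnma1 was at 0.15 ± 0.12, the sodium-activated Kcnt1 (Slack) at 0.27 ± 0.24 and the BK subunit Kcnmb4 at 0.27 ± 0.13, and 0 of the 8 genes of these last groups had an unadjusted P under 0.05.

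The 8 Kcnh genes, whose channels open slowly and act near the spike threshold, went both ways. Kcnh6 (Kv11.2, chr11:106008044-106035595) measured 5.82, 5.40, 3.92 and 4.89 CPM in the controls and 3.34, 3.42, 4.06 and 3.88 CPM with morphine. Control replicate 5 was within the morphine range and the other 3 above it. Its log2 fold change was -0.44 ± 0.17 (SE, n = 4 per group, edgeR adjusted P = 0.317), with -0.74 in male and -0.15 in female libraries. Kcnh3 (Kv12.2) measured 6.33, 16.4, 5.07 and 15.9 CPM in the controls and 10.9, 36.4, 29.5 and 15.8 CPM with morphine, so that the 2 lower morphine libraries were inside the control range (log2 fold change 1.08 ± 0.44, edgeR adjusted P = 0.346). Kcnh7 (Kv11.3) was at 0.34 ± 0.15 (edgeR adjusted P = 0.387) and Kcnh2 at -0.08 ± 0.15. Kcnh3 and Kcnh7 were at -0.07 and -0.09 with the telencephalic score, and at 0.34 and 0.024 with the choroid plexus score. Kcnh3 overlaps the coding gene Mcrs1 and Kcnh7 the coding gene Gca, and the counting is not stated to use strand.

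In the Kv3 family, which lets neurons fire fast, 0 of 4 genes had an unadjusted P under 0.05. Kcnc2 measured 354, 352, 364 and 335 CPM in the controls and 388, 291, 316 and 296 CPM with morphine (log2 fold change -0.12 ± 0.11), and Kcnc1 (Kv3.1) was at 0.15 ± 0.13. The controls of Kcnc2 were tightly grouped and lay inside the morphine range. Kcnv1, Kcnh3, Kcnh7, Kcnj4, Kcne3, Lgi1 and Dpp6 are named here after their values were seen. The 42 members outside the naming rule include 4 of the 17 with an unadjusted P under 0.05, and the 29 of them with at least 10 counts in every library ran from -0.32 to 1.15 on the log2 scale.

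DESeq2 called more members than edgeR on the same counts. It called 7 higher (7.87% of members, against 1.7% of all genes), namely Kcng2, Kcne2, Kcng1, Kcnip2, Kcns1, Kcnq5 and Kcnj2, with adjusted P values from 2.34e-06 for Kcng2 to 0.0450 for Kcnj2, and it called 0 lower. With sex in its model it called 4, and Kcnq5 (adjusted P = 0.0512), Kcns1 (adjusted P = 0.0584) and Kcnj2 (adjusted P = 0.0629) were not among them. All 7 were among the 15 that edgeR placed at an unadjusted P under 0.05. limma-voom called 0 members, with 15 higher and 2 lower at an unadjusted P under 0.05 (7.14% and 5.41% of all genes), and its adjusted P for Kcng2 was 0.0566.

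The 15 members that were higher at an unadjusted P under 0.05 had a value above 0 in both sexes. Morphine replicate 4 was the highest library in 9 of them and morphine replicate 8 in 5, while the lowest was control replicate 1 in 8 and control replicate 5 in 6. Marker scores were also higher in the mean with morphine. The telencephalic score (mean log2 CPM of the list) was 3.98, 4.08, 3.99 and 5.75 in the controls and 5.14, 6.32, 6.08 and 5.90 with morphine, and the choroid plexus score was -0.15, 1.08, 0.92 and 2.09 against 2.32, 3.05, 2.22 and 3.49. In ribosome-bound RNA pooled from gross dissections, more cells of a type and more RNA per cell cannot be told apart.

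**Figure D4:**
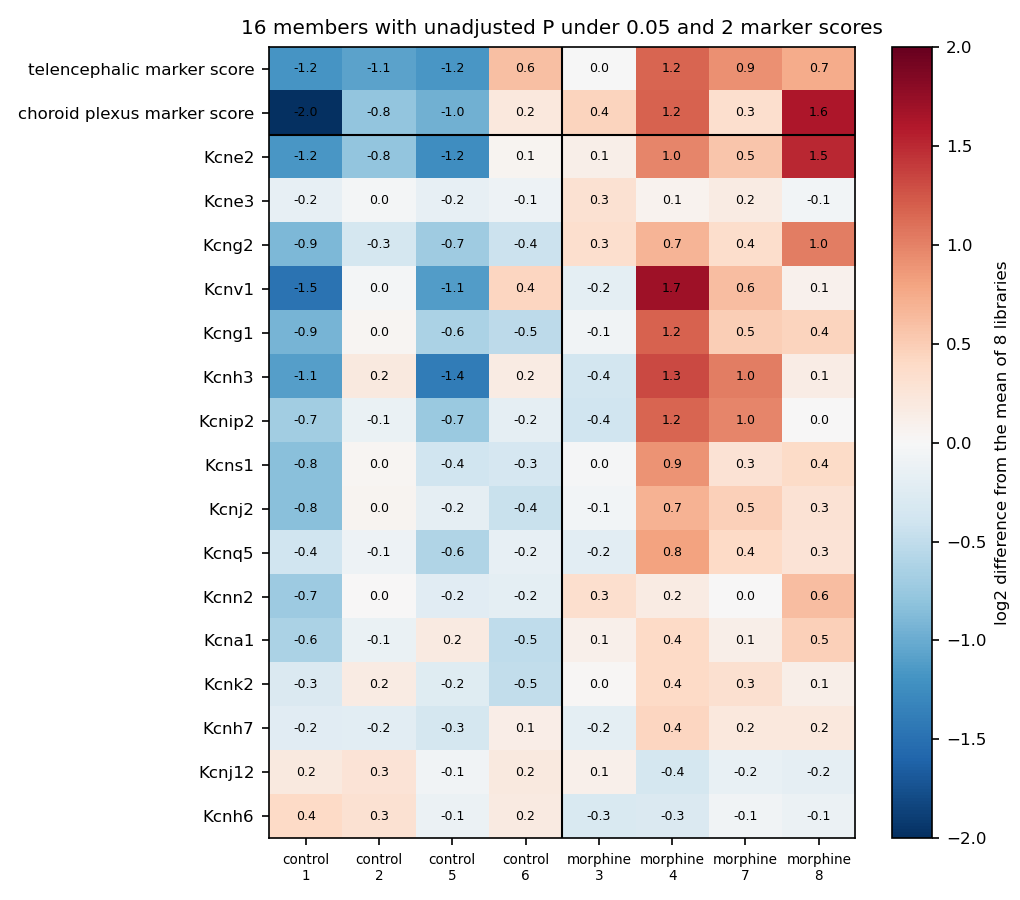
Log2 difference of each library from the mean of the 8 libraries for the telencephalic and choroid plexus marker scores (top rows) and for 16 of the 17 members with an unadjusted P under 0.05 (log2 of CPM plus 0.5). Control replicates 1 and 5 are blue and morphine replicates 4 and 8 red in both marker scores and in most members down to Kcnq5.

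With a marker score as a term of the edgeR model, most differences were smaller and less precise. The median log2 fold change of the 15 members went from 0.88 to 0.53 with the telencephalic score and to 0.38 with the choroid plexus score, and the median standard error from 0.22 to 0.37 and 0.36. Values above 0 were left in 12 and 14 of the 15. Kcng2 was at 1.12 ± 0.34 (unadjusted P = 0.0084 in edgeR, not an exact test) with the telencephalic score and at 0.71 ± 0.29 (unadjusted edgeR P = 0.0357) with the choroid plexus score, and 0 members were called with either. Of all 18939 genes, 0 were called higher and 1 lower in the former fit, and 0 either way in the latter. The loss of calls was therefore not particular to the members. At an unadjusted P under 0.05 in edgeR, 3 of the 89 members were higher and 2 lower in the first of these models (3.83% and 3.84% of all genes), and 1 was higher and 1 lower in the second (1.25% and 1.87% of all genes). Of the 17 members from the model with condition only, 2 and 1 were among them. Kcna1 was at 0.67 with the telencephalic and 0.26 with the choroid plexus score, and was the other of 2 members that kept an unadjusted P under 0.05 with the telencephalic score. Kcnn2 went to 0.58 and 0.095. Kcne2 went to 1.12 and 0.42, Kcnip2 to 0.19 and 0.73, and Kcnq5 to 0.21 and 0.38. Kcnv1 and Kcnh3 went to -0.24 and -0.07 with the telencephalic score, while Kcnk2, at 0.53 and 0.51, was not smaller with either.

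**Figure D5:**
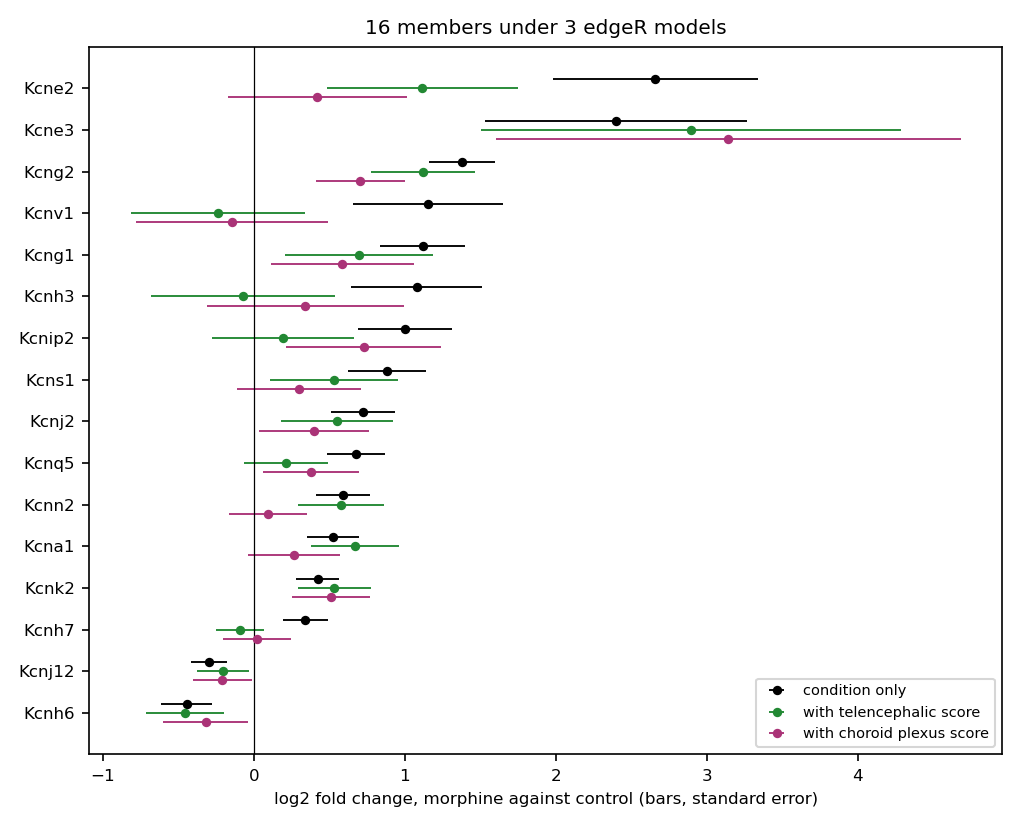
Log2 fold change of morphine against control with its standard error for 16 of the 17 members with an unadjusted P under 0.05, from edgeR models with condition only (black), with the telencephalic score (green) and with the choroid plexus score (purple). Kcng2, Kcng1, Kcnj2 and Kcnk2 stay to the right of 0 by more than 1 standard error in all 3, whereas Kcnv1, Kcnh3 and Kcnh7 are below 0 with the telencephalic score and Kcnv1 also with the choroid plexus score. The points of Kcne3 also lie to the right but rest on too few counts for a fold change.

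No difference between the sexes was detected in these genes. Between female and male libraries 0 members were called by edgeR, and 0 had an unadjusted P under 0.05, against 3.1% of all genes. The lowest unadjusted edgeR P was 0.115, for Kcnv2, a gene with at most 0.154 CPM. The interaction of sex and morphine gave 0 calls as well and 0 members at an unadjusted P under 0.05, against 1.72% of all genes. Its lowest unadjusted edgeR P was 0.0653, for the K2P gene Kcnk6 (log2 difference 1.42 between the sexes' morphine effects). DESeq2 gave 0 calls and 0 members at an unadjusted P under 0.05 in both comparisons. Without control replicate 5, whose label is in doubt, Kcne4 (log2 fold change -0.79, female against male) and Kcne2 (1.18) had an unadjusted P under 0.05 and 0 members were called. These are 1 higher and 1 lower of 89, against 1.70% and 0.928% of all genes in the same fit.

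Promoter sequences are shown for 4 of the 7 members that DESeq2 called, to set 1 with a motif match beside 3 without. Both promoters of Kcnq5 and the second promoter of Kcne2 held no match and are not printed, and those of Kcng2 and Kcng1 were not used here. RefSeq (GRCm38.p6) listed promoters for 64 of the 89 members, 88 in all. The 250 bases before each start site were searched on both strands for TGACGTCA, the binding motif of CREB, for its half-site TGACG, and for the E-box CAGATG. The half-site is part of the full motif, and the E-box overlaps neither. The full motif was in 0 of 88 member promoters (1.55% of 32851 promoters of all genes), the half-site in 17.05% (17.8% of all) and the E-box in 15.9% (14.4% of all). Of the 14 promoters of members higher at an unadjusted P under 0.05, 1 held the half-site and 2 the E-box. Median GC content was 58.8% in member promoters and 52.4% in all. The upstream Kcne2 promoter, chr16:92292139-92292388 (plus strand), held the half-site on both strands and 1 E-box, marked in capitals. The promoters of Kcns1, chr2:164171114-164171363 (minus strand), Kcnj2, chr11:111065914-111066163 (plus strand), and Kcnip2, chr19:45816064-45816313 (minus strand), held none of the 3 motifs and have no capitals. A match is a run of letters and not a shown binding site.
Kcne2: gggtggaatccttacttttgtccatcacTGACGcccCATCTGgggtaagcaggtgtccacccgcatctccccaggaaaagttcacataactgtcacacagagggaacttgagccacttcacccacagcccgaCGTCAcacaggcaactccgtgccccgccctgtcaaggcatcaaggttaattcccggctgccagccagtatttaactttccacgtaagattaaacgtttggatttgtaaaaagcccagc
Kcns1: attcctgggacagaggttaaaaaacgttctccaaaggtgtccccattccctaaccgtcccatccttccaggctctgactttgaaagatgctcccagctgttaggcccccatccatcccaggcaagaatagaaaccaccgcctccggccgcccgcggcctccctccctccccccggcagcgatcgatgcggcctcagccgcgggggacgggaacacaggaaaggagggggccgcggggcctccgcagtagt
Kcnj2: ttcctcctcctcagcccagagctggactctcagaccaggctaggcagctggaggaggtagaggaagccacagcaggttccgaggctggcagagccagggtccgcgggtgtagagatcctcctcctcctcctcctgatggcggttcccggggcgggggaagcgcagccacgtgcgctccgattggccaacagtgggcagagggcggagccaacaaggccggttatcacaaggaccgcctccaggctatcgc
Kcnip2: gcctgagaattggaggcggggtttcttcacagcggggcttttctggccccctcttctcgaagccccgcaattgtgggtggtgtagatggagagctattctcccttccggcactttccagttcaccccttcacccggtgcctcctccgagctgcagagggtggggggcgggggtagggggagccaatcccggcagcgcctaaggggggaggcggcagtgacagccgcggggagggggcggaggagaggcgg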

How the data were processed

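RNA was measured in 8 TRAP-Seq libraries, grouped by their labels (control 1, 2, 5 and 6, morphine 3, 4, 7 and 8). The authors deposited whole-number read counts per RefSeq transcript, not normalized. The study's methods describe paired reads of 50 bases and Salmon with a gene-level matrix for DESeq2, and the submitters' processing notes name the mm10 build, but the tool behind this table is not given in the sources used here. Reads shared by transcripts of a gene appear to be counted on each of them, so 1 transcript, that of highest total, stands for each gene. Of the 19 members with more than 1 transcript, 5 had identical counts on all of them. The library kit is directional, but no source says that counting used strand, and values of overlapping genes are uncertain for that reason. PCR copies are not marked, so reads are not independent molecules.

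All genes with any count were tested with edgeR 4.0.16 (R 4.3.3), glmQLFit and glmQLFTest with TMM factors, with condition as the only term, and P values were adjusted by Benjamini-Hochberg over all 18939 genes. Genes with an adjusted P under 0.05 are called. CPM were computed from the deposited counts and TMM library sizes, and levels per kb with GENCODE vM21 transcript lengths matched by RefSeq accession. Exact permutation tests used log2 of CPM plus 0.5 over the 70 arrangements of 4 and 4 libraries. RefSeq on GRCm38.p6 gave the coordinates. Sex was tested with condition in the model, and its interaction with condition in a model with both. A marker score is the mean log2 CPM of a list (prior count 2). The tests were tried on simulated data.

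Alternatives were DESeq2 1.42.0, limma-voom (limma 3.58.1), upper-quartile and RLE factors, a minimum of 10 counts in all libraries, filterByExpr, models with sex or with a marker score, the sum over transcripts, each sex alone and each library left out. The groups share no replicate number. Members and lists were chosen with earlier results of these data known. Named genes are the called members, the 10 higher and the 10 lower members with the lowest P, the highest member of each family, listed genes of other cell types and of thalamic neurons, and the lowest P in the tests of sex. Figures were drawn with matplotlib 3.10.9. Protein sequences were not used here. Single values of 3 members are not reported here, and they are not drawn, but counts over the members include them.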

Additional observations from a re-analysis of the deposited data

Results flagged for a closer look

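In 7 of 87 groups of 4 libraries (named members, each group apart), 1 library stood far from the other 3 by Dixon's criterion (its gap to the nearest library over the range of the group). Chance flags about 1 in 20 such groups. Control replicate 2 was the high library in 4 of them. It held Kcnj16 at 2.23 CPM (others 0.487 to 0.574), Kcnk3 at 46.5 CPM (others 29.8 to 32.1), Kcnn1 at 22.3 CPM (others 13.2 to 14.6) and Kcnt1 at 37.4 CPM (others 17.3 to 20.01). Control replicate 6 held Kcnip1 at 112 CPM (others 98.8 to 100.1), and control replicate 5 held Kcnmb4 at 18.8 CPM (others 25.7 to 26.1). Kcnn4 was at 0.0411 CPM in morphine replicate 8 and at 0 in the other 3 morphine libraries, a difference of 2 counts.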

How the results depend on the processing

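No paired analysis was possible because the groups share no replicate number. With morphine against control, edgeR called 1 member. The count was 7 with DESeq2, 4 with DESeq2 and sex in the model, 1 with male libraries only (not Kcng2), 0 with limma-voom, filterByExpr, at least 10 counts in every library, either marker score, the sum over transcripts or female libraries only, and 0 to 2 with a library left out. Calls over all genes varied as well. edgeR called 31 higher and 6 lower, DESeq2 322 and 176, and DESeq2 with sex 307 and 142. limma-voom called 20 and 3, filterByExpr 11 and 3, the minimum of 10 counts 12 and 3, and the sum over transcripts 18 and 4. With the telencephalic score they were 0 and 1, with the choroid plexus score 0 and 0, with female libraries 3 and 0, and with male libraries 119 and 32. Kcng2 was called under 8 of 21 alternatives, with a log2 fold change between 0.71 and 1.49 and an adjusted P between 2.34e-06 and 1.00. Its adjusted P was 0.0556 with filterByExpr and 0.0554 with at least 10 counts in every library, where fewer genes were tested. For the other differences the cause was not tested. Calls for sex and for the interaction were 0 under the alternatives run.

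No member with an unadjusted P under 0.05 and a place among the named genes turned its sign. Kcnv1, Kcnh3, Kcnh7 and Kcnj4, outside the naming rule, went to -0.24, -0.07, -0.09 and -0.24 with the telencephalic score, and Kcnv1 to -0.15 with the choroid plexus score. Some named members without such a P changed sign. With the telencephalic score the log2 fold change was 0.10 for Kcnj14, 0.054 for Kcnc2, 0.24 for Kcnip4, -0.14 for Kcnma1, 0.026 for Kcng4, 0.43 for Kcnj8, -0.10 for Kcnk13, 0.083 for Kcnk3 and 1.33 for Kcnv2. With the choroid plexus score it was 0.040 for Kcnc2, 0.29 for Kcnip4, -0.082 for Kcnma1, -0.88 for Kcnj10, -1.39 for Kcnj16, -0.15 for Kcnk13, -1.12 for Kcnn4, -0.14 for Kcnn1, -0.0039 for Kcna2, -0.10 for Kcnj11, -0.21 for Kcnt1 and 2.20 for Kcnv2. In female libraries only it was 0.16 for Kcne1l, 0.011 for Kcnip4, 0.11 for Kcnh2, 1.37 for Kcnj8, 0.11 for Kcnk3, 0.55 for Kcnv2 and 0.34 for Kcnk6, and in male libraries only -0.063 for Kcnab2, -0.62 for Kcnj16, -0.036 for Kcnn1 and -0.021 for Kcnt1. Kcnj8 was also at 1.05 with limma-voom, 0.047 with sex in the model and 0.19 with DESeq2 and sex. With a library left out the value ran from -0.026 to 0.10 for Kcnab2, -0.11 to 0.071 for Kcnip4, -0.20 to 0.067 for Kcnh2, -0.50 to 0.87 for Kcnj16, -0.51 to 1.80 for Kcnj8, -0.25 to 0.055 for Kcnk3 and -0.85 to 0.40 for Kcnv2. Over 44 named members and all alternatives, 838 values kept their direction and side of the threshold, 11 passed it, 13 lost it and 50 changed sign. Members under 1 CPM are limited by counting error.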
